A study of Mus musculus with 24 samples.

Results

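The genes described here encode NF-kB proteins and the proteins that hold NF-kB back, measured as transcripts in the mouse kidney line mpkCCD, epithelial cells of cortical collecting duct origin. Of 10 listed genes (Tnfaip3, Nfkbia, Nfkbiz, Nfkbie, Nfkb1, Nfkb2, Rel, Relb, Bcl3 and Birc3), those whose symbol equalled a row name were taken, which gave 9 of the 12224 rows. Nfkb2 had no row of its own, and Birc3 stayed below the filter on low values, so 8 members were tested. Poly(A) RNA was sequenced in 24 libraries, 6 in each of 4 groups: Gpr39 knockout (KO) cells given the agonist cpd1324, KO cells given vehicle, and wild-type (WT) cells given agonist or vehicle. Gpr39 encodes a zinc-sensing G protein-coupled receptor. Agonist meant cpd1324 at 1 µM and vehicle meant DMSO at 0.1%, both added for 2 h on the basolateral side. All 24 libraries, vehicle included, came from cells that also received 10 µM ZnCl2, after 9 days on permeable inserts without the vasopressin analogue dDAVP and 24 h in a simple medium. The labels give no number of knockout clones, do not name the edited stretch of Gpr39, and do not say whether replicates were separate cultures, so the p-values measure the spread between these libraries, which may be technical.

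NF-kB is a family of dimeric transcription factors built from the products of Rela, Relb, Rel, Nfkb1 and Nfkb2. In resting cells inhibitors of the IkB family keep the dimers in the cytoplasm. Signals from cytokine, pattern-recognition and some G protein-coupled receptors activate the IkB kinase (IKK) complex, the inhibitors are degraded, and the dimers enter the nucleus. Some of the genes they switch on, Nfkbia and Tnfaip3 among them, encode proteins that hold the pathway back, which closes a negative feedback loop. In kidney epithelium the pathway is best known from inflammation and tubular injury.

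The promoter windows of the members show how often the family carries a match to the DNA word that its own products bind. RefSeq windows (build GRCm38.p6, 250 bases before to 50 after a start site) were at hand for 7 of the 10 members, as 10 windows of 300 bases. The kB motif, a 10-letter consensus searched on both strands, occurred in 8 of these 10 windows and in 6 of the 7 genes, all but Birc3. Of all 32851 windows of the same length 8.46% held it. Windows of 1 gene can overlap, as the last pair of Nfkb2 does, so they are not independent, and a match describes letters only. The AP-1 motif TGANTCA was found in windows of Nfkbie, Tnfaip3 and Nfkb2 (7.81% of all windows), and the cAMP response element TGACGTCA in none of the 10 (1.79% of all windows). The windows of the 5 tested members with a match are printed with kB matches in capitals, because these are the members whose transcripts are followed in the results. Nfkbia lies at chr12:55492598-55492897 on the minus strand with its match at positions −29 to −20 from the start. Nfkbie lies at chr17:45555450-45555749 on the plus strand with its match at −106 to −97. For Tnfaip3 window 2 is shown, chr10:19015361-19015660 on the minus strand, with matches at −125 to −116 and −12 to −3. Window 1 of Tnfaip3, chr10:19011914-19012213, held no kB match. Bcl3 lies at chr7:19822706-19823005 on the minus strand with its match after the start, at positions 3 to 12. Rel lies at chr11:23770920-23771219 on the minus strand, where overlapping matches span −92 to −82.
Nfkbia: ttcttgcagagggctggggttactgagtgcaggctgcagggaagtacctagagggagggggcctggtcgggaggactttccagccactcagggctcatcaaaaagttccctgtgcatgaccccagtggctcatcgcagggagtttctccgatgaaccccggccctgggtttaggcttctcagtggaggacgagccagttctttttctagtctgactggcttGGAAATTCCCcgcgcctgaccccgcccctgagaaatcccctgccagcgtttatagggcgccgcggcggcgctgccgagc
Nfkbie: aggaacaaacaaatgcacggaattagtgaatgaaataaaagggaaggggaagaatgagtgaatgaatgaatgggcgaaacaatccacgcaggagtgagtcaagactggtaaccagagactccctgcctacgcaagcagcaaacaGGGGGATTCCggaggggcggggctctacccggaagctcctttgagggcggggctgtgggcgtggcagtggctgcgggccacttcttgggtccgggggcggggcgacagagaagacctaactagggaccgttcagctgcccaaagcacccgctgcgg
Tnfaip3: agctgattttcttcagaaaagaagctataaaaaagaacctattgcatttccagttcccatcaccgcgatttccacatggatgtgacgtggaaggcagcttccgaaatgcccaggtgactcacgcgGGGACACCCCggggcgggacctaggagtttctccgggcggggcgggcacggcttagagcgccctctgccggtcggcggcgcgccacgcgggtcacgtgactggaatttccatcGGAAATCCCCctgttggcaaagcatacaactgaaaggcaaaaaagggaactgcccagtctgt
Bcl3: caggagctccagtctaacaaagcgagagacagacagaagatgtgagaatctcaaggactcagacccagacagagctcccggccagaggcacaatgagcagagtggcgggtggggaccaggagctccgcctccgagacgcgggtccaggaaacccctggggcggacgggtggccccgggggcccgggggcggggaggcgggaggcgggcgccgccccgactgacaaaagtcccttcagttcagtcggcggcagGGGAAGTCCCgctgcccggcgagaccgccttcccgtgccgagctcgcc
Rel: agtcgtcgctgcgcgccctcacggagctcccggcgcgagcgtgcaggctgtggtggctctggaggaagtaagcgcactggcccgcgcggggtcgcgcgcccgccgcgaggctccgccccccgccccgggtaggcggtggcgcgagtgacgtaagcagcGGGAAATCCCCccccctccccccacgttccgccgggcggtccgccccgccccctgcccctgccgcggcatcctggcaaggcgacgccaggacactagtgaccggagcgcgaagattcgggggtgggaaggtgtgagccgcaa

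The libraries held 29.8 to 51.9 M reads as rebuilt from the deposited values. Levels are given in scaled units, which are per gene length and therefore comparable between genes, and a fold change is the difference between group means of log2(scaled units + 0.5), followed by its moderated standard error. Gpr39 itself averaged 9.37 ± 0.645 scaled units in KO vehicle cells and 21.6 ± 1.61 in WT vehicle cells (SD, n = 6 each), and every KO library was below every WT library, but transcripts remained in KO cells, so the level does not tell whether a working receptor was made. Of 11 principal cell markers 9 had rows, with summed levels of 711 to 1068 scaled units in KO agonist, 949 to 1105 in KO vehicle, 558 to 719 in WT agonist and 667 to 874 in WT vehicle libraries. Of 6 epithelial markers 5 had rows, and their summed level was 9568 to 12321 in WT agonist libraries against 4727 to 5370.4 in WT vehicle libraries, with KO libraries between 4365 and 5109. All 5 were called higher with agonist in WT cells. Krt18 gained the most scaled units, averaging 6356 in WT agonist and 2236 in WT vehicle cells. Of 8 immune cell markers 2 had rows, Cd68 and Csf1r, and summed to 51.0 to 57.5 in KO agonist, 48.1 to 68.9 in KO vehicle, 65.6 to 80.0 in WT agonist and 59.9 to 66.8 in WT vehicle libraries. The 2 genes moved in opposite directions in WT cells. Cd68 averaged 42.6 with agonist and 29.2 with vehicle, and Csf1r 29.5 with agonist and 34.3 with vehicle. Intercalated cell markers (4 of 7 with rows) summed to 40.6 to 69.9 over all libraries and the 1 fibroblast marker of 6 with a row, Col1a1, to 0.629 to 3.27, while 0 of 5 endothelial markers had a row. The part of these marker shifts in the results was not tested, and in bulk RNA fewer cells of a type and less RNA per cell cannot be told apart. The library KO vehicle 6 stood apart, with a root mean square deviation of 0.396 log2 units from its group against 0.136 to 0.153 in the other KO vehicle libraries. Column totals of WT agonist libraries were 1.18 times those of WT vehicle libraries. As deposited, the agonist in WT cells gave 3302 genes higher and 3303 lower, but 1433 and 6944 when every library was scaled to the same total, where the median of all genes was −0.24 in place of −0.01, and 2693 and 4128 with quantile scaling. In KO cells the agonist gave 539 higher and 536 lower as deposited, and 643 and 318 at the same total.

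Within 2 h the agonist raised all 8 tested members in WT cells. Calls of a higher level at an adjusted p below 0.05 (limma, Benjamini-Hochberg over 11557 rows) covered 28.6% of all genes, and the libraries of 8 of 8 members stood higher without overlap, as those of 19.8% of all genes did. The members' median log2 fold change was 1.28, against −0.01 over all genes, and 1.04 against −0.24 with every library at the same total. Calls with a log2 fold change of at least 1 made up 3.6% of all genes and included Tnfaip3, Nfkbia, Rel, Nfkbiz, Nfkbie and Relb. The remaining members, Bcl3 and Nfkb1, lay above 0.5, where 9.26% of all genes were called. This sorting is that of the deposited scaling. Over the alternatives run, the lowest fold change of Relb was 0.85 and that of Nfkb1 0.48, both still called. The sharpest rise belonged to an inhibitor, Tnfaip3, and the smallest to a subunit, Nfkb1.

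Tnfaip3, on chromosome 10, encodes a ubiquitin-editing enzyme that shuts down signalling upstream of IKK. Its level in WT agonist libraries had a lowest value of 333, a median of 456 and a highest of 557 scaled units, against 12.0, 13.3 and 15.5 in WT vehicle libraries. In reads this was 12401 to 24225 per library with agonist and 478 to 812 with vehicle. The lowest agonist library was thus far above the highest vehicle library. The mean was 33.1 times the vehicle mean, with a log2 fold change of 4.99 ± 0.10 (adjusted p = 2.35e-22), which ranked 6 from the top among 11557 fold changes.

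Nfkbia, on chromosome 12, encodes the classical inhibitor that traps NF-kB dimers in the cytoplasm. It stood at 564, 627 and 749 scaled units (lowest, median and highest) in WT agonist libraries and at 194, 230 and 258 in WT vehicle libraries. The means were 638 ± 64.2 and 228 ± 27.3 (SD, n = 6 each), with a log2 fold change of 1.49 ± 0.07 (adjusted p = 1.13e-15). Starting from a high level, Nfkbia gained more scaled units than any other member except Tnfaip3. Nfkbie, on chromosome 17, encodes another cytoplasmic inhibitor of the same family. It was far less abundant, with 17.3, 22.1 and 24.0 scaled units in WT agonist libraries against 7.21, 8.41 and 10.3 in WT vehicle libraries. Its log2 fold change was 1.25 ± 0.08 (adjusted p = 1.32e-12). The means with agonist were 2.80 times the vehicle mean for Nfkbia and 2.46 times for Nfkbie, at very different levels.

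**Figure D1:**
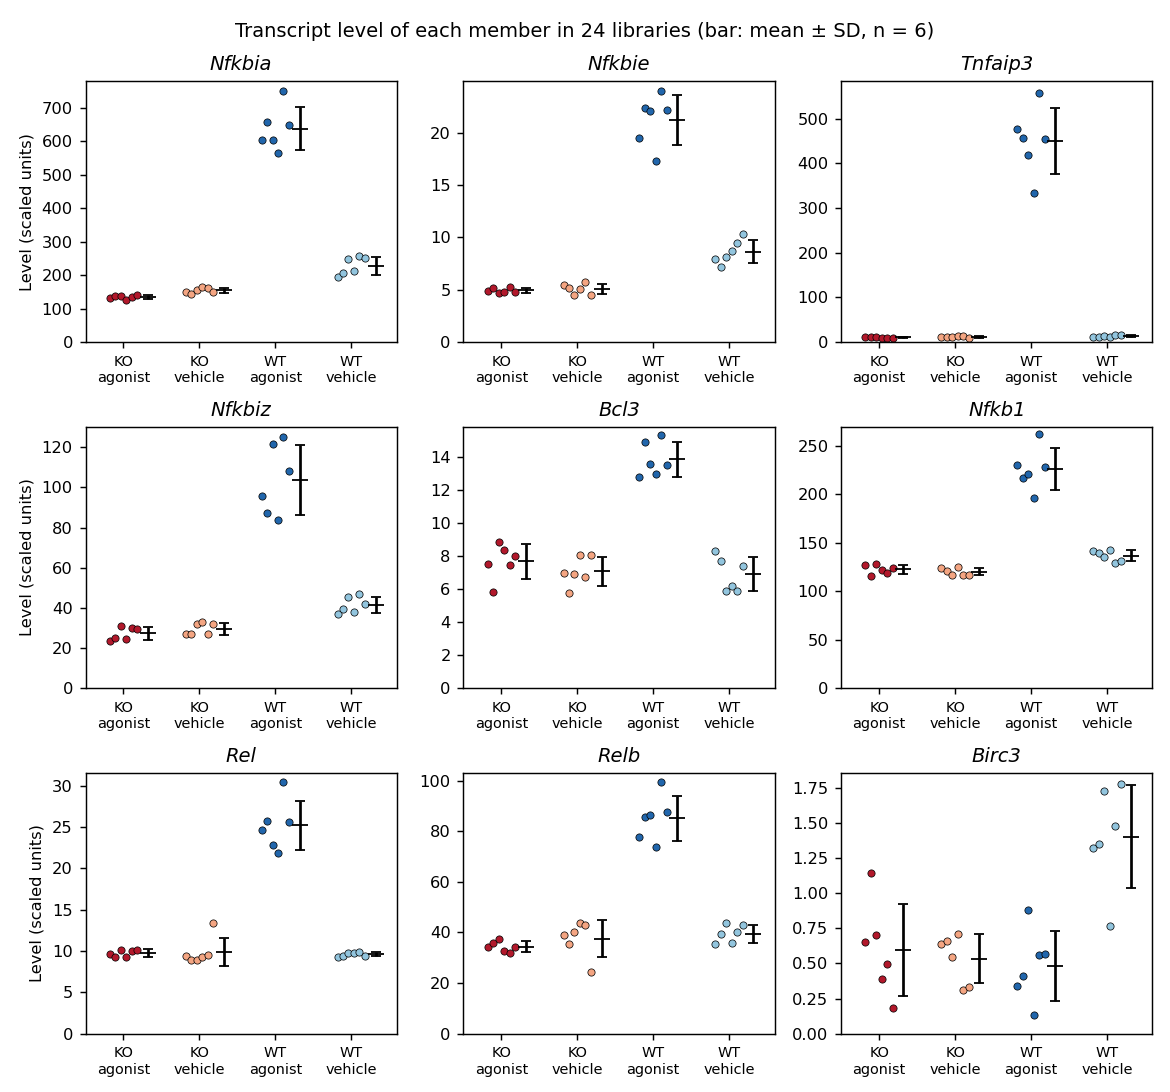
Each panel plots 1 member, with the level in scaled units on a linear axis from 0 and the groups KO agonist, KO vehicle, WT agonist and WT vehicle from left to right; points are libraries and the bar is the mean ± SD (n = 6). For the 8 tested members all WT agonist points lie above all WT vehicle points, while Birc3 stays below 2 scaled units everywhere and its WT vehicle mean of 1.40 is the highest.

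The atypical, nuclear members of the IkB family do not trap NF-kB but bind its dimers on DNA and alter which genes respond. Nfkbiz, on chromosome 16, needed for part of the interleukin-6 class of target genes in macrophages, had 83.5, 102 and 125 scaled units in WT agonist libraries against 37.1, 40.5 and 46.7 in WT vehicle libraries. Its log2 fold change was 1.30 ± 0.10 (adjusted p = 1.54e-11). Bcl3, on chromosome 7, a partner of dimers that lack a transactivation domain, had 12.8, 13.6 and 15.3 scaled units in WT agonist libraries and 5.88, 6.80 and 8.32 in WT vehicle libraries. This was a rise of 0.97 ± 0.10 on the log2 scale (adjusted p = 4.34e-09), to 2.01 times the vehicle mean. Neither gene's libraries overlapped between the groups. Outside the member set, the nuclear inhibitor gene Nfkbid averaged 18.4 ± 3.03 scaled units in WT agonist cells and 2.28 ± 0.369 in WT vehicle cells (log2 fold change 2.76 ± 0.12, adjusted p = 3.54e-16).

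The subunit genes rose as well. Rel, on chromosome 11, encodes a transactivating subunit best known from lymphocytes. It had 21.9, 25.2 and 30.5 scaled units in WT agonist libraries and 9.26, 9.58 and 9.89 in WT vehicle libraries. The vehicle libraries were closely spaced, and the log2 fold change was 1.34 ± 0.08 (adjusted p = 1.66e-13). Relb, on chromosome 7, encodes the subunit of the non-canonical pathway, which pairs with the processed product of Nfkb2. It had 73.8, 85.9 and 99.4 scaled units in WT agonist libraries against 35.4, 39.7 and 43.7 in WT vehicle libraries. Its mean was 2.15 times the vehicle mean (log2 fold change 1.09 ± 0.10, adjusted p = 1.09e-09). Nfkb1, on chromosome 3, encodes a precursor that acts as an inhibitor before it is processed and as a DNA-binding subunit afterwards. Of the 4 tested subunit genes it was the most abundant in all 4 groups, and it had 196, 225 and 263 scaled units in WT agonist libraries against 129, 137 and 143 in WT vehicle libraries. Its log2 fold change of 0.72 ± 0.05 (adjusted p = 2.72e-12) was the smallest of the tested members. Rela, the main transactivating subunit and not one of the 10 listed genes, averaged 153 ± 16.0 scaled units in WT agonist cells and 62.1 ± 1.40 in WT vehicle cells (1.29 ± 0.06, adjusted p = 2.53e-15).

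The remaining members could not be followed in the same way. Reads of Nfkb2 appear only in a row that joins it with the neighbouring gene Fbxl15 on chromosome 19, and they cannot be assigned to either gene. That joined row averaged 42.9 ± 2.11 scaled units in KO agonist, 40.3 ± 4.55 in KO vehicle, 81.4 ± 8.98 in WT agonist and 38.2 ± 1.15 in WT vehicle cells. Birc3, on chromosome 9, encodes a ubiquitin ligase that acts at cytokine receptors and restrains the non-canonical pathway. Its row has a gene length of 892 and held few reads, 35 over the KO agonist group, 36 over KO vehicle, 25 over WT agonist and 85 over WT vehicle. The WT agonist libraries had 1 to 8 Birc3 reads each and the WT vehicle libraries 8 to 19, and of the 9 listed genes with a row it is the 1 whose WT agonist mean (0.482 scaled units) lay below the WT vehicle mean (1.40). With no filter on low values it was called lower with agonist in WT cells, with a log2 fold change of −0.97 (adjusted p = 0.000172).

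Tnfaip3 ranked 2 by level among the members in WT agonist cells and 5 in the other 3 groups. Birc3 was lowest in all 4. In WT vehicle cells Nfkbia was highest, followed by Nfkb1, by Nfkbiz and Relb, whose ranges overlapped, then by Tnfaip3, and last by Rel, Nfkbie and Bcl3, each overlapping its neighbour in the order. In WT agonist cells Tnfaip3 ranked 2, between Nfkbia and Nfkb1, with no overlap to either, while Nfkbiz and Relb still overlapped each other, as did Rel and Nfkbie. In KO agonist cells Tnfaip3 ranked 5, overlapping Rel, and the ranges of Nfkbia and Nfkb1 overlapped. In KO vehicle cells Nfkbia was above Nfkb1 without overlap, Relb and Nfkbiz overlapped, and Tnfaip3 again ranked 5. These levels are per gene length within the same libraries.

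In KO cells the agonist moved none of the 8 tested members past the threshold. That is 0 of 8, where 9.3% of all genes were called in either direction, and voom on rebuilt reads called 0 as well, while 1 member, Nfkbia, had an unadjusted p under 0.05. The median of the members was −0.07 on the log2 scale, against −0.01 over all genes, with 6 fold changes below 0 and 2 above. Tnfaip3 had 9.59, 10.3 and 11.6 scaled units in KO agonist libraries and 9.72, 11.5 and 14.0 in KO vehicle libraries. These ranges overlap, and the log2 fold change was −0.16 ± 0.10 (adjusted p = 0.293). Nfkbia had 125, 136 and 140 scaled units in KO agonist libraries against 144, 153 and 165 in KO vehicle libraries. Every KO agonist library was below every KO vehicle library, as for 1.97% of all genes, but the log2 fold change of −0.20 ± 0.07 did not pass (adjusted p = 0.0567). It did pass with quantile scaling (adjusted p = 0.0345), in a fit of the KO groups alone (0.0161), with the replicate number as a block (0.0344), without KO vehicle 6 (0.0471) and without KO vehicle 6 and KO agonist 2 together (0.0398).

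Among the other members in KO cells, Nfkbie averaged 4.93 ± 0.214 scaled units with agonist and 5.08 ± 0.505 with vehicle (−0.03 ± 0.08). Nfkbiz averaged 27.2 ± 3.25 with agonist and 29.5 ± 2.94 with vehicle (−0.12 ± 0.10). Bcl3 averaged 7.66 ± 1.05 with agonist and 7.07 ± 0.878 with vehicle (0.11 ± 0.10). In each of these genes the ranges of the KO groups overlapped. Nfkb1 averaged 123 ± 4.80 scaled units with agonist and 120 ± 3.66 with vehicle (0.03 ± 0.05). Rel averaged 9.77 ± 0.427 with agonist and 9.91 ± 1.72 with vehicle (−0.01 ± 0.08). Relb averaged 34.5 ± 2.01 with agonist and 37.6 ± 7.21 with vehicle (−0.10 ± 0.10). The wide vehicle spread of the last pair comes from KO vehicle 6, which held the highest Rel value of its group (13.4 scaled units) and the lowest Relb value (24.2). Without that library the fold change of Relb was −0.22 (adjusted p = 0.0385) and that of Rel 0.08 (adjusted p = 0.352).

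**Figure D2:**
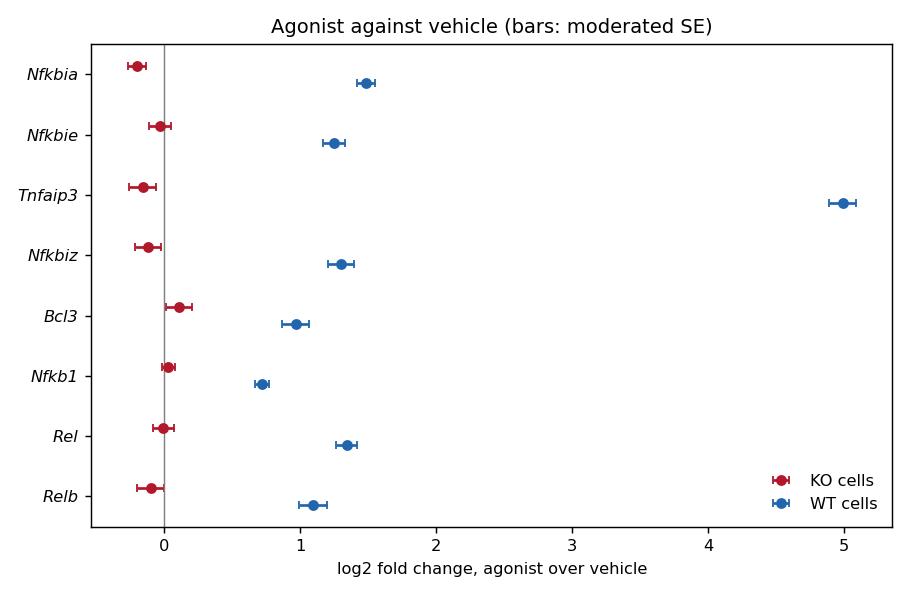
The log2 fold change of agonist over vehicle is plotted on the horizontal axis for each tested member, in KO cells (red) and WT cells (blue), with bars for the moderated standard error (n = 6 per group). WT points run from 0.72 for Nfkb1 to 4.99 for Tnfaip3, and KO points lie between −0.20 and 0.11.

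The difference between the genotypes was tested directly. The agonist effect in WT cells minus that in KO cells was above 0 and called for 8 of 8 members, where 21.5% of all genes were called in that direction. It was 5.15 ± 0.14 on the log2 scale for Tnfaip3 (adjusted p = 4.94e-19), 1.69 ± 0.10 for Nfkbia (adjusted p = 2.69e-13) and 0.69 ± 0.07 for Nfkb1 (adjusted p = 8.76e-09). Bcl3, the member whose KO values leaned upward most, still differed by 0.86 ± 0.14 (adjusted p = 1.34e-05). The interactions of Nfkbiz, Rel, Nfkbie and Relb lay between 1.19 and 1.42. Over all genes the interaction gave 2481 genes above 0 and 2265 below as deposited, 1130 and 6415 at the same total and 1994 and 3112 with quantile scaling, and the 8 members were called above 0 in all 3.

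Without agonist, KO cells carried fewer transcripts of 3 IkB genes and of Nfkb1 than WT cells. Under vehicle, 4 of 8 members were called lower in KO cells, where 23.9% of all genes were, and the libraries of the same 4 did not overlap, as for 14.1% of all genes. They were Nfkbia, Nfkbie, Nfkbiz and Nfkb1, 3 of them IkB genes. Nfkbia had 144, 153 and 165 scaled units (lowest, median and highest) in KO vehicle libraries and 194, 230 and 258 in WT vehicle libraries. Its log2 fold change was −0.55 ± 0.07 (adjusted p = 2.78e-07). Nfkbie showed the deepest difference, with 4.47, 5.14 and 5.74 scaled units in KO vehicle libraries against 7.21, 8.41 and 10.3 in WT vehicle libraries (−0.71 ± 0.08, adjusted p = 9.55e-08). Nfkbiz had 26.8, 29.3 and 33.0 scaled units in KO vehicle libraries against 37.1, 40.5 and 46.7 in WT vehicle libraries (−0.48 ± 0.10, adjusted p = 0.000208). Nfkb1 differed less, with 117, 119 and 125 scaled units in KO vehicle libraries against 129, 137 and 143 in WT vehicle libraries (−0.18 ± 0.05, adjusted p = 0.00289). If the KO cells are 1 clone, clonal differences cannot be told apart from the knockout, and the summed principal cell markers differed in the ranges given above. Of these 9 markers 3 were higher in KO vehicle cells, 2 were lower and 4 were not called. The sum is carried by Hsd11b2, which encodes a glucocorticoid-inactivating enzyme, at 299 ± 36.2 scaled units in KO vehicle and 78.4 ± 16.4 in WT vehicle cells, and the water channel gene Aqp2, at 87.3 ± 18.0 in KO vehicle and 17.7 ± 4.94 in WT vehicle cells. The sodium channel genes went the other way in Scnn1a (293 ± 32.5 in KO vehicle and 376 ± 26.4 in WT vehicle cells) and Scnn1b (1.95 ± 0.271 in KO vehicle and 8.19 ± 1.14 in WT vehicle cells). These markers were named after their values were seen.

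Tnfaip3, Bcl3, Rel and Relb were not called under vehicle. Tnfaip3 had 9.72, 11.5 and 14.0 scaled units in KO vehicle libraries and 12.0, 13.3 and 15.5 in WT vehicle libraries, with a log2 fold change of −0.21 ± 0.10 (adjusted p = 0.0884). The 542 tested rows on its chromosome had a median of −0.16 in the same comparison. For the chromosomes of the called members the medians were 0.09 (Nfkbia), 0.007 (Nfkbie), −0.08 (Nfkbiz) and 0.01 (Nfkb1). The part of such shifts in the members was not tested. Without KO vehicle 5 the fold change of Tnfaip3 was −0.26 and passed (adjusted p = 0.0381). Bcl3 differed by 0.04 ± 0.10 (adjusted p = 0.765), Rel by 0.03 ± 0.08 (adjusted p = 0.766) and Relb by −0.09 ± 0.10 (adjusted p = 0.473). Without KO vehicle 6 the signs of Rel (−0.05) and Relb (0.03) were the other way round. Among IkB genes outside the member set, Nfkbid was lower in KO vehicle cells (1.36 ± 0.237 scaled units) than in WT vehicle cells (2.28 ± 0.369; −0.58 ± 0.12, adjusted p = 0.000299), and Nfkbib, which encodes a further cytoplasmic inhibitor, was higher in KO vehicle cells (43.4 ± 1.92) than in WT vehicle cells (38.1 ± 2.33; 0.19 ± 0.06, adjusted p = 0.00741).

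With agonist, 8 of 8 members were called lower in KO than in WT cells, where 32.1% of all genes were, and their libraries did not overlap, as for 24.6% of all genes. This comparison shares its libraries with those above, so it is not a separate result. The log2 fold changes were −5.35 ± 0.10 for Tnfaip3, −2.24 ± 0.07 for Nfkbia, −1.99 ± 0.08 for Nfkbie and −1.90 ± 0.10 for Nfkbiz. Rel (−1.32 ± 0.08), Relb (−1.29 ± 0.10), Nfkb1 (−0.87 ± 0.05) and Bcl3 (−0.82 ± 0.10) differed less. The members' median was −1.61, against 0.01 over all genes, and −1.33 against 0.28 at the same total. Over all genes the comparison gave 3695 higher and 3711 lower as deposited, 7272 and 1726 at the same total and 4517 and 2991 with quantile scaling.

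**Figure D3:**
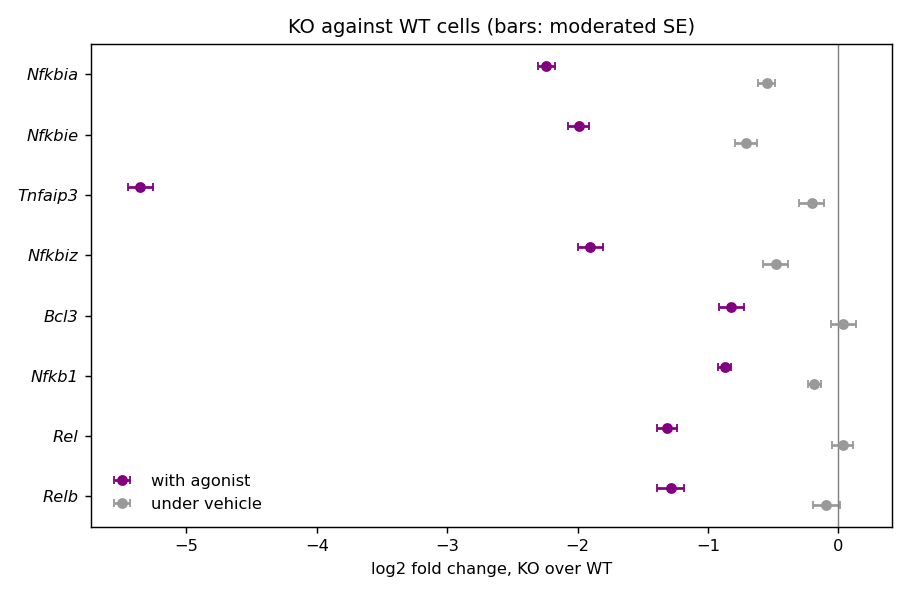
The horizontal axis gives the log2 fold change of KO over WT cells for each tested member, with agonist (purple) and under vehicle (grey), and bars give the moderated standard error (n = 6 per group). With agonist all points lie at or below −0.82, and under vehicle they lie between −0.71 and 0.04.

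The balance of inhibitor to subunit transcripts was summarised within each library as the summed level of the cytoplasmic inhibitors Nfkbia, Nfkbib and Nfkbie over that of Rela, Relb, Rel and Nfkb1, a ratio that does not move with library scaling. It averaged 0.781 ± 0.0235 in KO agonist, 0.873 ± 0.0347 in KO vehicle, 1.48 ± 0.0487 in WT agonist and 1.11 ± 0.124 in WT vehicle cells (SD, n = 6 each). No groups overlapped: KO agonist libraries lay between 0.755 and 0.808, KO vehicle libraries between 0.834 and 0.928, WT agonist libraries between 1.42 and 1.56 and WT vehicle libraries between 0.967 and 1.26. The mean log2 ratio with agonist differed from that with vehicle by 0.42 in WT cells and by −0.16 in KO cells, and that of KO vehicle from WT vehicle cells by −0.34. In an exact two-sided permutation test each of these 3 differences had p = 0.002165, the smallest that 6 against 6 libraries can give, and the same after Benjamini-Hochberg adjustment. Nfkbia supplied 74.6% of the inhibitor sum in KO agonist, 76.1% in KO vehicle, 88.3% in WT agonist and 83.0% in WT vehicle cells, so it weighs most in the ratio. When the genes were weighted equally, as means of log2 levels, the WT difference was 0.04 and did not pass (exact permutation p = 0.396). In that form the KO agonist difference was −0.09 (exact permutation p = 0.0108) and that of KO vehicle from WT vehicle cells −0.33 (exact permutation p = 0.00216).

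**Figure D4:**
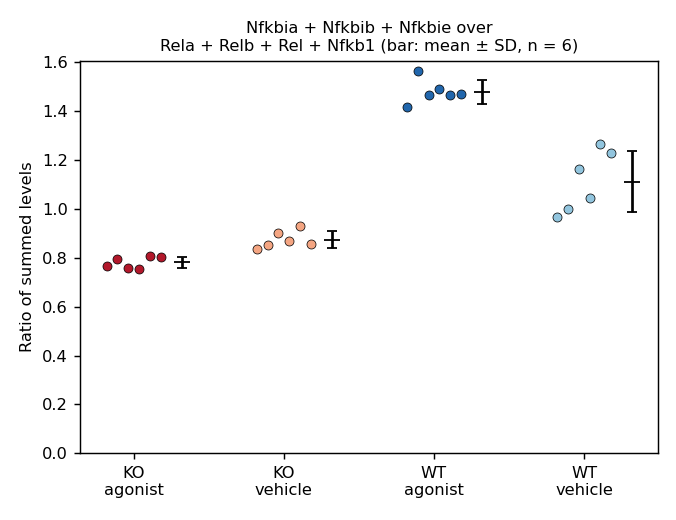
The ratio of summed inhibitor to summed subunit levels is plotted per library on a linear axis from 0, for KO agonist, KO vehicle, WT agonist and WT vehicle from left to right, with the mean ± SD (n = 6). No library of 1 group lies within the range of another, and the WT agonist libraries are highest, at 1.42 to 1.56.

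The rest of the pathway was followed through 9 lists of genes ordered by role, described by counts alone. In WT cells given agonist, 55 of the 89 tested genes of these lists, members included, rose (61.8%) and 20 fell (22.5%), where 28.6% of all genes were called higher and 28.6% lower. These counts, and those of single lists in WT cells below, use the deposited scaling. They were not repeated at the same total per library, where 1433 of all genes were called higher and 6944 lower. The median of all genes there was −0.24, so rises smaller than that may depend on the scaling. Among receptors, 8 of 11 tested genes rose and 3 fell, with a list median of 0.35 against −0.01 over all genes. Il1rl1, the receptor of interleukin-33, averaged 6.68 ± 1.26 scaled units with agonist and 0.766 ± 0.173 with vehicle (a ratio of means of 8.72, adjusted p = 1.27e-14). Tlr2, a receptor for bacterial lipoproteins, rose by 2.21 ± 0.12 (adjusted p = 2.88e-14) and Tnfrsf10b, a death receptor, by 1.45 ± 0.05 (adjusted p = 2.39e-17). Of 4 tested ligands 2 rose and 2 were not called. Il1a, an epithelial alarmin, averaged 21.8 ± 4.23 scaled units in WT agonist and 0.160 ± 0.0838 in WT vehicle cells (adjusted p = 1.04e-19), and Tnf, the prototype NF-kB activating cytokine, 12.4 ± 2.01 in WT agonist and 0.321 ± 0.105 in WT vehicle cells (adjusted p = 5.80e-18). Over the 6 libraries of a group Il1a had 2225 reads with agonist and 20 with vehicle, and Tnf 874 with agonist and 27 with vehicle. Such low vehicle levels leave the size of the fold open to the pseudocount: the log2 fold change of Il1a was 5.07 with 0.5 added, 6.45 with 0.1 and 3.44 with 2, and that of Tnf 3.97, 4.92 and 2.62, while both stayed called. Il1a, Tnf and Il1rl1 averaged below 1 scaled unit in every group other than WT agonist. They passed the filter on low values only through that group. Their calls, and the counts of receptors, ligands and all listed genes that rose, therefore lean on the filter.

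Between receptor and IKK both directions occurred. Of 16 tested adaptors and ligases 4 rose, 6 fell and 6 were not called in WT cells (median −0.08), near the shares over all genes. Irak2, a kinase of the interleukin-1 and Toll-like receptor route, rose by 0.75 ± 0.06 (adjusted p = 6.10e-11), while the death domain adaptor Fadd fell by 0.62 ± 0.05 on the log2 scale (adjusted p = 2.13e-10) and Traf5 fell by 0.51 ± 0.04 (adjusted p = 3.27e-10). In the complex of 3 proteins that links G protein-coupled receptors to IKK, 2 genes rose. Bcl10 averaged 156 ± 16.7 scaled units with agonist and 72.7 ± 3.51 with vehicle (1.09 ± 0.06, adjusted p = 9.96e-14) and Card10, the scaffold of that complex outside immune cells, 164 ± 15.0 with agonist and 94.2 ± 7.42 with vehicle (0.80 ± 0.09, adjusted p = 6.25e-08). Of the 11 IKK and related kinases 8 rose and 2 fell (median 0.27). Map3k14, the kinase of the non-canonical pathway, rose by 0.62 ± 0.05 (adjusted p = 1.98e-10), Map3k7, the kinase that activates IKK, by 0.55 ± 0.04 (adjusted p = 3.61e-11) and the catalytic subunit Chuk by 0.50 ± 0.04 (adjusted p = 6.45e-11). The other catalytic subunit, Ikbkb, rose by 0.17 ± 0.05 (adjusted p = 0.00667) with an interaction of 0.02 ± 0.07 (adjusted p = 0.889); its KO value was 0.15 ± 0.05 (adjusted p = 0.0556). The regulatory subunit Ikbkg fell by 0.26 ± 0.07 (adjusted p = 0.00203).

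Among the 13 deubiquitinases and other brakes, a list that includes Tnfaip3, 8 rose and 2 fell in WT cells (median 0.26). Zc3h12a, an RNase that degrades inflammatory transcripts, averaged 56.5 ± 7.35 scaled units with agonist and 9.87 ± 1.56 with vehicle (2.46 ± 0.09, adjusted p = 1.49e-17). The deubiquitinase genes Otud7b (1.04 ± 0.05, adjusted p = 1.69e-14) and Cyld (0.35 ± 0.04, adjusted p = 5.32e-08) rose less. Of 22 target genes with rows 21 were tested, and 13 of these rose, 7 fell and 1 was not called (median 0.74). Icam1, below 1 scaled unit in every group, was left out by the filter on low values. Ccl20 averaged 0.760 in WT vehicle cells and stayed below 1 in KO cells. It passed only through WT agonist cells (7.00), so the count and median can lean upward. The neutrophil chemokine gene Cxcl2 averaged 267 ± 40.5 scaled units with agonist and 3.51 ± 1.39 with vehicle (6.12 ± 0.17, adjusted p = 1.22e-19), Cxcl1 rose by 5.10 ± 0.15 (adjusted p = 1.43e-19) and the granulocyte growth factor gene Csf3 by 2.69 ± 0.10 (adjusted p = 8.69e-18). All 4 tested subunit genes and all 6 IkB genes, members included, rose in WT cells (medians 1.19 and 1.28).

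**Figure D5:**
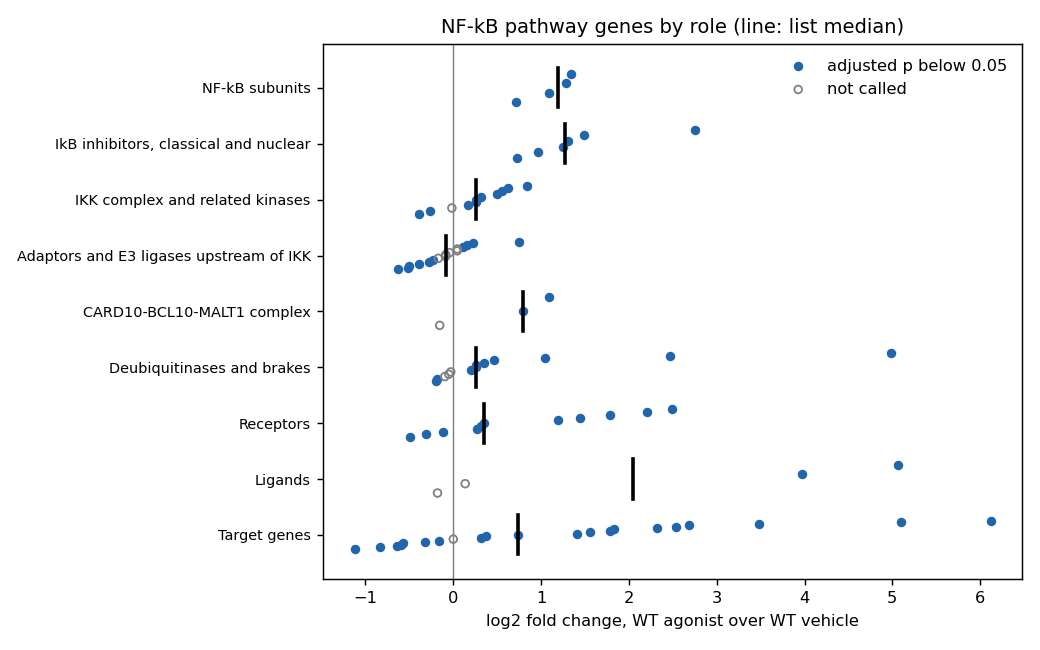
The log2 fold change of WT agonist over WT vehicle is plotted for each tested gene of the 9 role lists, with filled points for genes called at an adjusted p below 0.05, open points for the others and a bar at each list's median. Subunit and IkB genes lie wholly to the right of 0, while the adaptors straddle 0 with a median of −0.08.

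In KO cells given agonist, 4 of the 89 tested genes of the lists were called (4.49%), fewer than the 9.3% of all genes. The receptor gene Ngfr was higher, at 0.72 ± 0.21 (adjusted p = 0.0377). The targets Csf1 (−0.49 ± 0.11, adjusted p = 0.0112), Sod2 (−0.23 ± 0.05, adjusted p = 0.00856) and Ccl5 (−0.75 ± 0.22, adjusted p = 0.0380) were lower. These 4 were named after their values were seen. The number of calls over all genes in this comparison ranged from 284 to 1851 when single libraries were left out, around 1075 with all of them.

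Under vehicle, 17 of the 89 tested genes of the lists were higher (19.1%) and 32 lower (36.0%) in KO than in WT cells, where 23.9% of all genes were called higher and 23.9% lower. The counts of single lists are small and are given as descriptions. Of the 11 receptors 2 were higher and 5 lower in KO cells, with Tnfrsf1a, the main receptor of TNF, at 54.4 ± 2.46 scaled units in KO and 75.0 ± 3.57 in WT cells (−0.46 ± 0.04, adjusted p = 5.64e-10) and the thrombin receptor gene F2r at 152 ± 13.3 in KO and 98.3 ± 7.01 in WT cells (0.63 ± 0.05, adjusted p = 8.75e-10). Of the 4 ligands 2 were higher and 1 lower. The alarmin gene Il33 averaged 2.21 ± 0.713 scaled units in KO and 0.617 ± 0.238 in WT cells (a ratio of means of 3.59, adjusted p = 9.90e-07), and Tnf, at 3 reads over 6 KO libraries and 27 over 6 WT libraries, was too low to size. Il33 averaged 0.483 in WT agonist cells as well, so it passed the filter on low values only through KO cells, and its call leans on that. Of the 16 adaptors 1 was higher and 5 lower, among them Ripk1, a kinase at the TNF receptor (27.5 ± 1.33 scaled units in KO and 40.2 ± 0.855 in WT cells; −0.54 ± 0.04, adjusted p = 2.92e-11), and Irak2 (−0.53 ± 0.06, adjusted p = 8.41e-08). Bcl10 (−0.27 ± 0.06, adjusted p = 0.000825) and Card10 (−0.35 ± 0.09, adjusted p = 0.00279) were lower. Of the 11 genes of the IKK list 1, Chuk, was higher (0.27 ± 0.04, adjusted p = 5.72e-06) and 4 were lower, including Ikbke (−0.45 ± 0.08, adjusted p = 6.51e-05) and Ikbkb (−0.14 ± 0.05, adjusted p = 0.0265). Of the 13 brakes 5 were higher, Cyld among them (0.34 ± 0.04, adjusted p = 1.63e-07), and 4 lower, Pdlim2 among them (−0.26 ± 0.04, adjusted p = 8.18e-06). Of the 21 targets 5 were higher and 6 lower, near the shares over all genes, with Gadd45b, a stress response gene, at −0.76 ± 0.09 (adjusted p = 2.34e-07) and Cxcl1 at −1.14 ± 0.15 (adjusted p = 5.87e-07).

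The genes whose pattern over the 4 groups was most like that of Tnfaip3, by the root mean square distance between log2 group differences from WT vehicle, were the AP-1 gene Fosb (0.21), Il1a (0.33) and the cytokine gene Lif (0.33). Those most like Nfkbia were Plekho2 (0.08), the homeobox gene Irx3 (0.13) and the interferon-gamma receptor gene Ifngr1 (0.13). Ifngr1, for example, stood at −0.61 in KO agonist, −0.56 in KO vehicle and 1.31 in WT agonist cells relative to WT vehicle cells on the log2 scale. Of the 3 pseudocounts tried, Il1a ranked among these genes with 0.5 only; with 0.1 and 2 it ranked 21 and 17 (distances 0.94 and 0.84). Irx3 ranked 4 and 92 in the same settings, while the other 4 genes stayed among the 3 nearest. These likenesses rest on 4 group means from the same libraries and are descriptions.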

How the data were processed

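Group and replicate number were read from the sample titles. Per the submitters' processing notes, reads were handled with STAR 2.7.8a, DESeq2 and the build GRCm39; the counter, annotation and strand setting are not given in the sources used here. The deposited table holds a normalized signal per gene, which the authors had divided by gene length, as its values show. They were multiplied by the deposited gene length and rounded to 0.1, and a factor fitted per library (0.754 to 1.46) then turned 100% of them into whole reads within 0.08 read. A single constant, 92.1, brought the average column total to 1000000 scaled units, and the factors between libraries were left as deposited.

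A row was kept when it averaged 1 scaled unit or more (11557 of 12224). All 24 libraries entered 1 limma 3.58.1 model (R 4.3.3) on log2(scaled units + 0.5) with a term per group, mean trend and robust moderation and 20 residual degrees of freedom; tests were two-sided, adjusted by the Benjamini-Hochberg method over all rows kept, and called below 0.05. The method was tested on simulated data. The ratio of inhibitor to subunit levels was tested over libraries by an exact permutation test; Nfkb2, planned as part of its denominator, was left out because it has only a joined row.

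The members, the gene lists and the tests were chosen with earlier results of these data known. Named genes are all members, Gpr39, Rela, Nfkbib, Nfkbid, Chuk, Ikbkb and Ikbkg, and from each other list up to 3 called genes by smallest adjusted p with agonist in WT cells and up to 2 between KO and WT cells under vehicle; exceptions are stated where they occur. Promoter windows are from RefSeq (GRCm38.p6); Nfkb1, Nfkbiz and Relb were not among them. Alternatives were a pseudocount of 0.1 or 2, no filter or one at 5 scaled units, scaling to the same total, by median ratio or by quantiles, fitting only the groups compared, plain moderation, a replicate block and leaving out single libraries, and, added after seeing the data, voom on rebuilt reads a fit without KO vehicle 6 and KO agonist 2, and the same pseudocounts for the genes most like a member and for Il1a, Tnf, Il1rl1 and Il33, all 4 at low levels.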

Additional observations from a re-analysis of the deposited data

Results flagged for a closer look

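The agonist effect differed between the genotypes for each of the 8 tested members, by the interaction term. The difference, WT effect minus KO effect on the log2 scale, was 5.148 for Tnfaip3, 1.688 for Nfkbia, 1.422 for Nfkbiz, 1.348 for Rel, 1.283 for Nfkbie, 1.195 for Relb, 0.8595 for Bcl3 and 0.6887 for Nfkb1, with adjusted p-values from 4.94e-19 to 1.34e-05. Every WT agonist library lay above every WT vehicle library for these genes, whereas the KO groups overlapped except for Nfkbia.

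One value lay far from its group. Rel stood at 13.37 scaled units in KO vehicle 6, while the other 5 KO vehicle libraries stood close together, and the gap to the nearest was 0.863 of the group's range. Of 40 sets of 6 libraries examined in this way (9 members and the ratio in 4 groups) 1 was marked, where chance marks about 5%. The same library deviated from its group over all genes.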

How the results depend on the processing

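With agonist in WT cells, in the interaction and between KO and WT cells with agonist, 8 of 8 members were called in the same direction under every alternative run, and between KO and WT cells under vehicle 4 to 5 were. With no filter on low values Birc3 was added, called below 0 for agonist in WT cells, in the interaction and between KO and WT cells under vehicle. The interaction over all genes gave 7545 calls at the same total per library, against 4746. With agonist in KO cells the members called numbered 1 with quantile scaling, in the fit of the compared groups alone and with the replicate block, 2 without KO vehicle 6 and KO agonist 2 together, and 0 to 2 when single libraries were left out; the cause was not tested. In the same comparison all genes called came to 2623 without KO vehicle 6 and KO agonist 2, and to 284 to 1851 without single libraries (fewest without KO agonist 1, most without KO agonist 2). The difference of agonist from vehicle in the log2 inhibitor to subunit ratio in WT cells was 0.045 as a mean of log2 levels, against 0.42 with summed levels. The cause was not tested. Signs turned only among uncalled values. Rel with agonist in KO cells was 0.028 at the same total and 0.092 without KO vehicle 6 and KO agonist 2, and −0.033 to 0.080 without single libraries. Under vehicle, KO against WT, Rel was −0.055 and Relb 0.028 without those 2 libraries, and without single libraries Rel ranged from −0.055 to 0.058, Relb from −0.14 to 0.028 and Bcl3 from −0.0019 to 0.093. Nfkbie with agonist in KO cells ranged from −0.065 to 0.00015. Deviations of same-numbered libraries had correlations from −0.279 to 0.488, the highest between WT agonist 5 and WT vehicle 5. The labels do not say whether same-numbered libraries were prepared together, and these correlations cannot decide it. With the replicate block in limma, 6593 genes were called for agonist in WT cells and 1122 in KO cells, and Nfkbia passed in KO cells (adjusted p = 0.0344). Count models on whole reads (edgeR and DESeq2) were not run, since the reads are rebuilt from values per gene length; voom on them called 8, 0, 8, 4 and 8 members in the 5 comparisons. Depth limits Birc3, with 1 to 19 reads per library, and Tnf and Il1a outside WT agonist cells.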

Other observations

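Some of the NF-kB target genes went the other way in WT cells given agonist; they were picked after their values were seen. Irf1, a transcription factor of the interferon response, averaged 21.6 ± 1.69 scaled units with agonist and 47.3 ± 3.43 with vehicle in WT cells (log2 fold change −1.12 ± 0.06, adjusted p = 3.05e-14 in limma), against 40.0 ± 2.27 with agonist and 44.2 ± 3.80 with vehicle in KO cells. Tnfaip8, a regulator of cell death, averaged 56.8 ± 4.65 with agonist and 102 ± 9.14 with vehicle in WT cells (−0.83 ± 0.07, adjusted p = 5.39e-11), against 133 ± 12.8 with agonist and 141 ± 8.88 with vehicle in KO cells. Their interactions were −0.98 ± 0.09 (adjusted p = 8.26e-10) and −0.75 ± 0.09 (adjusted p = 3.50e-07). The receptor gene Ngfr was higher with agonist in both genotypes, at 40.2 ± 11.0 with agonist against 11.8 ± 5.56 scaled units with vehicle in WT cells and 10.9 ± 2.05 with agonist against 6.43 ± 1.15 with vehicle in KO cells, and the effects differed by 1.07 ± 0.30 (adjusted p = 0.00560).

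The library WT agonist 5 held the highest value of its group for 8 of 8 tested members and WT agonist 4 the lowest for 7 of 8, and at the same total per library for 7 and 6 of 8. These libraries also had the largest and the smallest column total of their group. The highest value exceeded the lowest by a factor of 1.2 to 1.67 among the members. The part of library size in this order was not tested beyond the scaling to the same total.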
